A study of Mus musculus with 2 samples.

Results

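The genes examined were T, which encodes the T-box transcription factor Brachyury, and Lhx9, which encodes a LIM homeobox transcription factor. They are 2 of the 18131 genes measured, and they were chosen by their total counts of UMIs (unique molecular identifiers, each standing for 1 captured RNA molecule), which were low in the KO library. Their difference between the libraries is therefore a description and no finding of its own. The data are single-cell RNA profiles of C57BL/6 mouse embryos at E9.5, from tissue cut out at the level of the cardiac neural crest, between the otic placode and somite 4. WT embryos were Prdm6+/+; Wnt1-Cre2; ZsGreen1. KO embryos were Prdm6f/f; Wnt1-Cre2; ZsGreen1. All embryos thus carried the Wnt1-Cre2 driver, active in the dorsal neural tube and the neural crest it produces, and the Cre-dependent green reporter ZsGreen1. Only KO embryos carried the floxed Prdm6 alleles, which Cre deletes in the Wnt1 lineage alone. The labels call the cells cardiac neural crest cells, but no sort for ZsGreen1 is described. Of the T- and Lhx9-positive cells, only 2 Lhx9-positive WT cells entered either neural crest marker gate. Samples were barcoded and pooled before droplet capture, cells were not assigned to single embryos here, and each genotype had 1 library, so no difference has a replicate check and no test was made.

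Brachyury is the founding member of the T-box family. In the gastrulating embryo it is made in the primitive streak and nascent mesoderm, later in the tail bud, and it persists in the notochord, the axial rod that patterns the overlying floor plate through Sonic hedgehog. Lhx9 acts with LIM-domain binding cofactors. It is made in the coelomic epithelium that gives rise to the gonad and to mesothelial coverings including the epicardium, in limb bud mesenchyme, and in dorsal interneurons of the neural tube. Notochord, coelomic mesothelium and limb mesenchyme are mesodermal and do not come from the Wnt1 lineage. T lies on chromosome 17 from 8434423 to 8442496 on the plus strand, and Lhx9 on chromosome 1 from 138825186 to 138848577 on the minus strand (GRCm38, GENCODE vM21). No other annotated gene overlaps either of them.

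Depth was 20781384 UMIs over 11958 cells in WT and 18936857 UMIs over 9765 cells in KO, with medians of 1597 and 1703 UMIs per cell. Levels are given as CPM, the UMIs of a gene in every 1000000 UMIs of a library or of the cells named, and ranges in brackets after them are exact Poisson intervals of 95%. Ranges after shares are exact Clopper-Pearson intervals of 95%, and both kinds cover counting error only. The targeted gene, Prdm6, had 104 UMIs in WT and 59 in KO (log2 of KO over WT −0.68). It was found in 3 of the 55 T-positive and 0 of the 135 Lhx9-positive WT cells. The libraries shared 26 cell barcodes, of which 0 belonged to a cell with T or Lhx9.

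T had 193 UMIs in WT, or 9.29 CPM (8.02 to 10.7), and 51 UMIs in KO, or 2.69 CPM (2.01 to 3.54). KO was lower by 3.45-fold, a log2 ratio to WT of −1.79. At least 1 UMI was present in 55 WT cells (0.460%, 0.347% to 0.598%) and in 21 KO cells (0.215%, 0.133% to 0.329%). With every cell reduced to 1000 randomly drawn UMIs (thinning), the shares were 0.406% and 0.124%. Erythroid cells, which should lack T, held none in 465 WT cells (median depth 2088 UMIs), which allows a share of up to 0.645%, and none in 195 KO cells (median depth 2504), which allows 1.54%. The shares over all cells lay below these limits and are not read by themselves as expression.

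The T-positive cells fell into a class with 1 UMI and a class with more, a division made after the values were seen. In WT, 27 cells had 1 UMI and 28 had 2 or more, up to 16 in a cell, and these 28 cells held 166 of the 193 UMIs (86.0%). In KO, 17 cells had 1 UMI and 4 had 2 or more, with 6, 8, 9 and 11 UMIs, and these 4 cells held 34 of the 51 UMIs (66.7%). The share of cells with 2 or more UMIs was 0.234% (0.156% to 0.338%) in WT and 0.0410% (0.0112% to 0.105%) in KO. The share with 1 UMI was 0.226% (0.149% to 0.328%) in WT and 0.174% (0.101% to 0.279%) in KO, with overlapping intervals. Cells with 2 or more UMIs contributed 7.99 of the 9.29 CPM in WT and 1.80 of the 2.69 CPM in KO, so most of the difference in level lay in the number of such cells. Where T was present at 2 or more UMIs its level was 3254 CPM (2778 to 3788) in the 28 WT cells and 3507 CPM (2429 to 4901) in the 4 KO cells, with overlapping intervals.

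**Figure D1:**
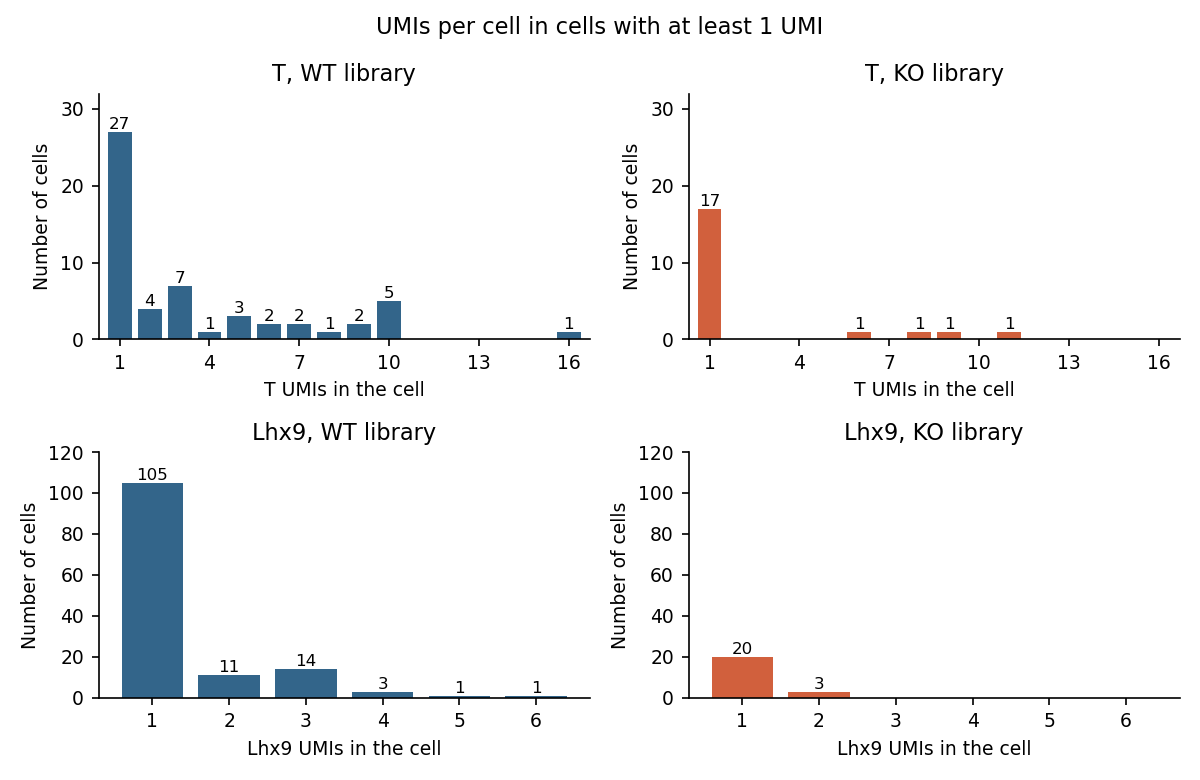
Number of cells (y axis) by the number of T or Lhx9 UMIs in the cell (x axis), for cells with at least 1 UMI, in the WT (blue) and KO (orange) libraries, with the number of cells printed above each bar. For T, the WT cells spread up to 16 UMIs and the KO library has 4 cells beyond 1 UMI. For Lhx9, most cells have 1 UMI in both libraries.

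The genes most enriched in T-positive WT cells were ranked by CPM in positive over other cells. The leading genes were Car3, a carbonic anhydrase, Shh, the signal secreted by notochord and floor plate, Clu, a secreted chaperone, and Slit2, an axon guidance ligand. They were found in the class with 2 or more T UMIs. Of its 28 WT cells, 27 had Shh, 26 had Car3, 25 had both and all 28 had at least 1 of the pair. Of the 27 cells with 1 T UMI, 0 had Shh and 0 had Car3. Among cells without T, Shh was found in 3.40% and Car3 in 2.14%. Shh reached 3038 CPM in the class with 2 or more T UMIs, against 32.6 CPM in cells without T, and Car3 reached 2901 CPM against 12.9 CPM.

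In WT some other genes of the list divided in the same way, and others hardly did. Slit2 was found in 19 of the 28 WT cells with 2 or more T UMIs and in 0 of the 27 with 1. Clu and the ubiquitin ligase gene Wwp2 were each found in 18 and 0. Col2a1, which encodes the type II collagen of notochord and cartilage, was found in 23 and 7, and Krt8, a keratin of simple epithelia, in 21 and 2. Igfbp5, which encodes an insulin-like growth factor binding protein, was present in all 28 cells of the former class at 3881 CPM, and in 7 of the 27 at 502 CPM. In WT cells without T the shares were 21.1% for Col2a1, 11.2% for Krt8 and 41.6% for Igfbp5. By contrast Rusc1 was in 6 of the 28 and 5 of the 27, and Tmod2 and Spns1 were each in 8 and 4. In the 4 KO cells with 2 or more T UMIs, Shh, Car3, Clu, Slit2, Col2a1, Krt8 and Igfbp5 were each present in 4 of 4, and Wwp2 in 3. In KO, Slit2 and Clu were each in 2 of the 17 cells with 1 T UMI (11.8%, against 5.57% and 2.43% of KO cells without T). The WT zeros in 27 cells allow up to 11.1%, and the genes were ranked in WT. No difference between the libraries in this division is therefore read from them. Igfbp5 was in 8 of the 17 (47.1%), against 40.1% of KO cells without T.

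**Figure D2:**
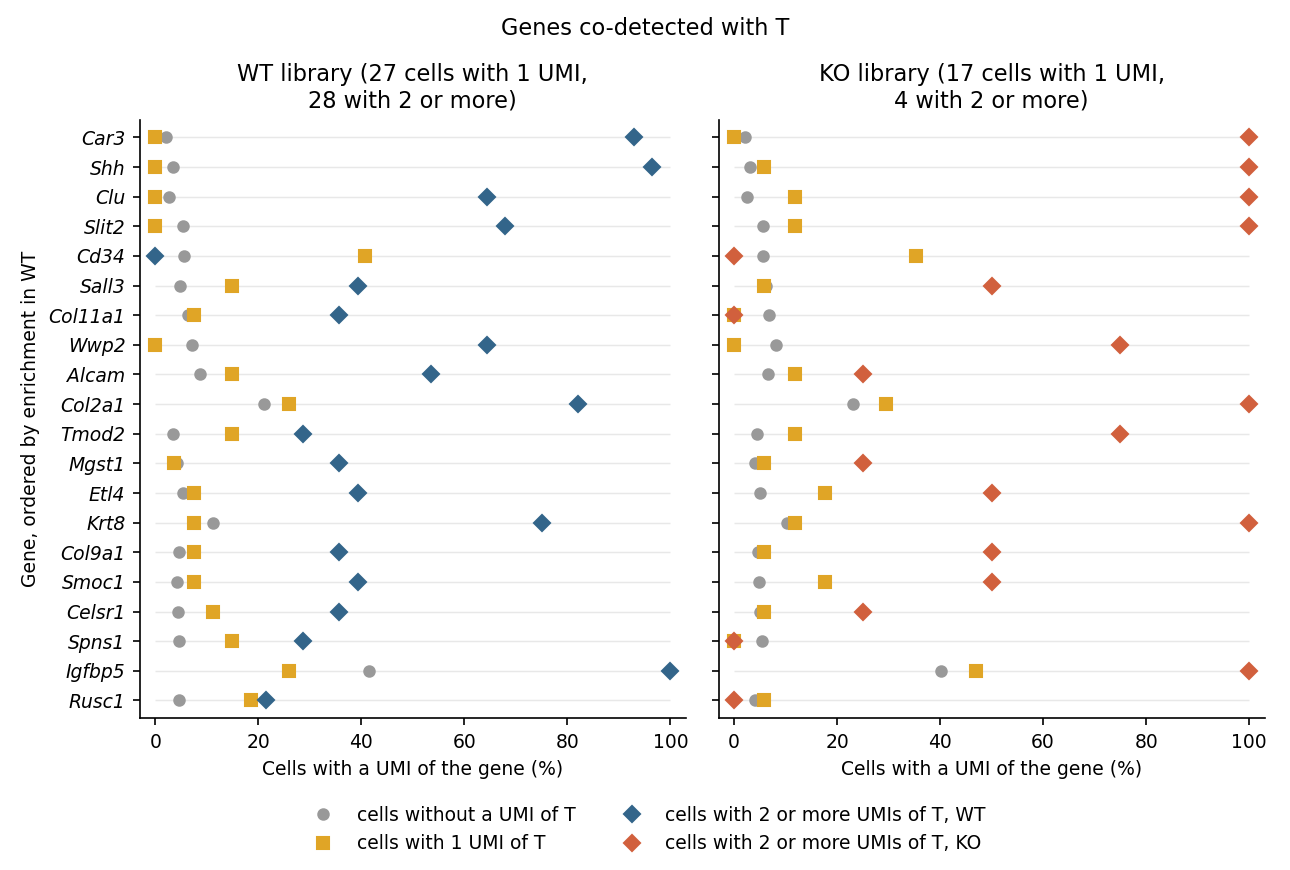
Percent of cells with a UMI of each gene (x axis) for the 20 genes most enriched in T-positive WT cells (y axis, most enriched at the top), in cells without T (grey circles), with 1 T UMI (yellow squares) and with 2 or more (diamonds, blue in WT and orange in KO). Shh and Car3 are near 100% in the class with 2 or more T UMIs of both libraries and at most 5.88% in the class with 1, whereas Cd34 shows the opposite order. The KO class with 2 or more UMIs is 4 cells.

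Cells were assigned to 26 marker gates, each a list of 8 genes that includes neither T nor Lhx9. A cell entered a gate with a UMI of at least 3 of its markers and of more of them than of any other gate, and 65.7% of WT and 67.1% of KO cells entered none. The notochord gate, of which 7 of 8 markers were measured, took 9 cells in each library. T was present in 4 of the 9 in WT (39 UMIs, 2089 CPM, 1485 to 2855) and in 1 of the 9 in KO (9 UMIs, 475 CPM, 217 to 902). Over both libraries together, genes with a minimum number of UMIs in these cells were ranked by their ratio to other cells, with 10 CPM added to each side. T led them (86.1), followed by Car3 (55.1) and the gate marker Shh (39.2). Gate markers with few UMIs could not enter this ranking. The gate missed most of the class: of the 28 WT cells with 2 or more T UMIs, 21 were ungated, 4 were notochord-gated, 2 were cardiac muscle-gated and 1 was endoderm-gated. Yet 27 of the 28 had at least 1 notochord marker and 14 had at least 2, compared with 13.5% and 1.73% of cells without T. The first count restates Shh, itself a marker of the gate. Floor plate markers, which share Shh and Foxa2 with it, gave 27 and 9 of the 28, compared with 17.9% and 3.01%. In KO the counts for notochord markers were 4 and 2 of 4.

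Shh is shared by notochord and floor plate, and among Shh-positive cells T was found mostly in those that also had Car3. Of the 432 Shh-positive WT cells, 31 had Car3, of which 25 had T, and 401 lacked Car3, of which 2 had T. The floor plate gate held 84 WT and 71 KO cells, of which 71 and 64 had Shh, and 0 had T. These zeros allow shares of up to 3.57% and 4.23%. Car3 was found in 2 and 1 of them. Among the notochord markers, Nog, a BMP antagonist, was in 7 of the 28 WT cells with 2 or more T UMIs, Foxa2, a forkhead factor of axial mesoderm, floor plate and endoderm, in 6, and Mnx1, a homeobox gene, in 3. Their shares in WT cells without T were 1.66%, 3.95% and 0.134%. The markers Bicc1, Chrd and Foxj1 were in 2, 1 and 1 of the 28, and Bicc1 was no more abundant in T-positive cells (28.6 CPM) than in others (32.3 CPM).

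Cells with both Shh and Car3, a pair chosen after their co-detection with T was seen, numbered 31 in WT (0.259% of cells, 0.176% to 0.368%) and 8 in KO (0.0819%, 0.0354% to 0.161%). T was present in 25 of the 31 WT cells (80.6%, 62.5% to 92.5%) and in 4 of the 8 KO cells (15.7% to 84.3%). Its level in them was 2513 CPM (2122 to 2955) in WT and 1922 CPM (1331 to 2685) in KO, with overlapping intervals. Since the pair was chosen from WT cells with T, these values describe where the scarce T lay and are no separate support for it. The notochord-gated cells, equal in number, gave another picture, with T at 2089 CPM in WT and 475 CPM in KO and intervals that did not overlap. The KO value rests on 1 cell, and the intervals of the shares with T overlapped, at 13.7% to 78.8% for 4 of 9 WT cells and 0.281% to 48.2% for 1 of 9 KO cells. Of the pair cells without T, Col2a1 was present in 4 of 6 in WT and 0 of 4 in KO. Over all cells, Shh had 829 UMIs in WT and 569 in KO (log2 ratio −0.41), and floor plate-gated cells made up 0.702% and 0.727% of the libraries.

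The class with 1 T UMI had another composition. Of its 27 WT cells, 13 were ungated, 9 were endothelial-gated, 4 were cardiac muscle-gated and 1 was gated as dorsal neural tube. Cd34, a surface protein of endothelial and blood progenitors, was present in 11 of the 27, Kdr, a VEGF receptor, in 10, Egfl7, a vascular secreted factor, in 10, and Cdh5, the endothelial cadherin, in 8. Of the 28 cells with 2 or more T UMIs, Cd34, Kdr and Egfl7 were in 0 and Cdh5 in 1. In KO, 4 of the 17 cells with 1 UMI were endothelial-gated and 6 had Cd34.

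Among endothelial-gated cells, 9 of 425 in WT (2.12%, 0.973% to 3.98%) and 4 of 343 in KO (1.17%, 0.319% to 2.96%) had 1 T UMI, and 0 had more. Outside the gate the share with 1 UMI was 0.156% (0.0925% to 0.247%) in WT and 0.138% (0.0735% to 0.236%) in KO. Endothelial-gated cells were deeper, at a median of 2243 UMIs against 1577 in WT and 2799 against 1669 in KO. After thinning to 1000 UMIs, T of any number was found in 5 of 418 endothelial-gated WT cells (1.20%, 0.390% to 2.77%) and 0.373% (0.264% to 0.512%) of other WT cells. In KO it was found in 1 of 343 (0.292%) and 0.118%. The intervals for cells with 1 UMI were thus apart in both libraries, in cells that were not thinned. This class was defined after the values were seen, and the endothelial gate held the most of its gated cells. The comparison is therefore a description and no separate support. Once cells were thinned and all T-positive cells were compared, the intervals overlapped. Erythroid-gated cells, of similar depth in WT, had 0 of 465.

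**Figure D3:**
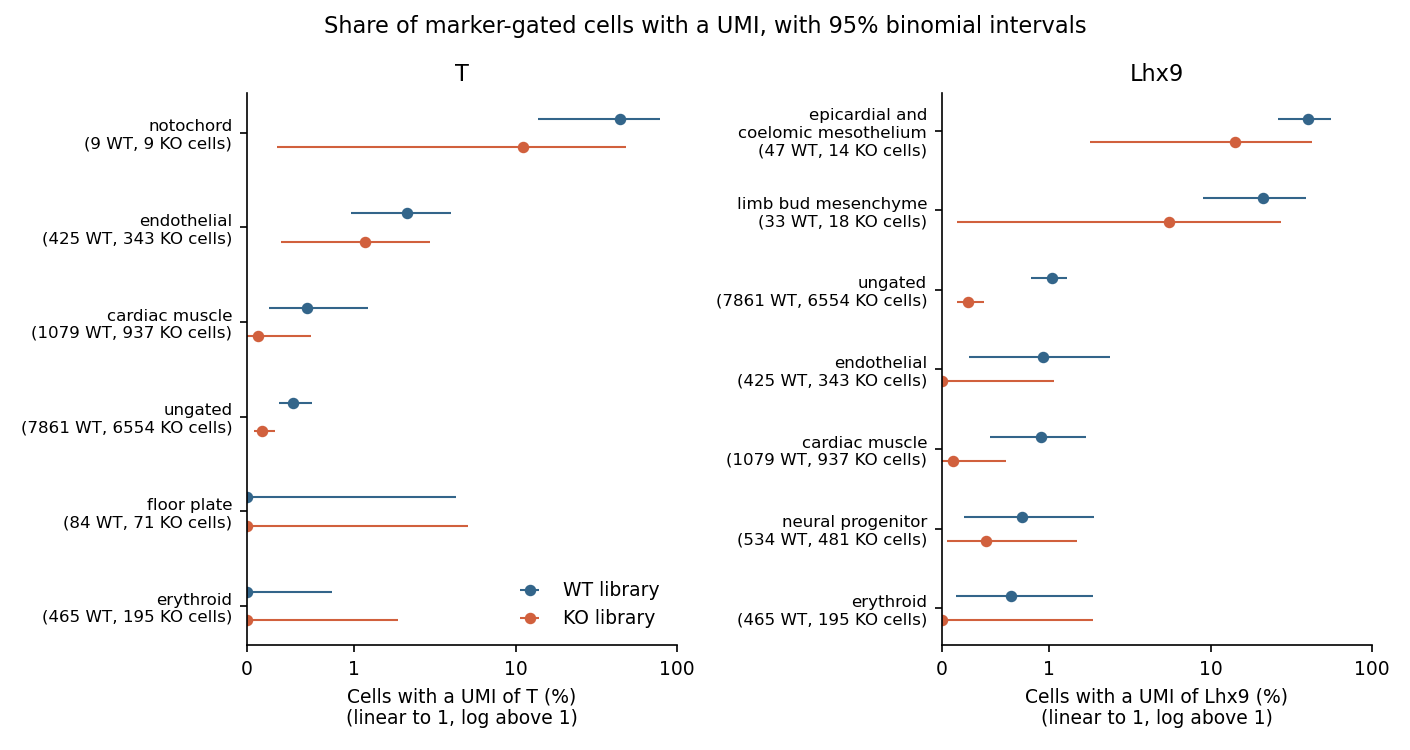
Percent of cells with a UMI of T (left) or Lhx9 (right) on the x axis, linear up to 1 and logarithmic above, by marker gate (y axis, with cell numbers), with exact 95% intervals, in WT (blue) and KO (orange). Gates with at least 3 positive cells over both libraries are drawn, together with erythroid and, for T, floor plate. In WT, T has its highest share in the notochord gate, and Lhx9 has its highest shares in the mesothelium and limb bud gates, whose intervals overlap.

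Markers of the tail bud and presomitic mesoderm, where T is also made or has just been shut off, were examined next. No cell in either library entered the tail bud progenitor gate or the presomitic mesoderm gate, for which 6 and 7 of 8 markers were measured. Tail bud markers, which include Cdx1, Cdx2 and Wnt3a, were present in 0 of the 55 WT and 0 of the 21 KO T-positive cells, against 2.42% and 2.58% of cells without T. The zeros allow up to 5.45% and 14.3%, so a lower share was not detectable at this depth. At least 1 presomitic mesoderm marker was found in 4 of the 55 WT cells (7.27%), all with 2 or more T UMIs, against 12.6% of cells without T. In KO it was found in 4 of the 21 cells (19.0%), all with 1 T UMI, against 11.1%. No T-positive cell had 2 of these markers. Fgf8, a growth factor of the streak and tail bud, was found in 1 and the Wnt target gene Sp5 in 3 of the 28 WT cells with 2 or more T UMIs. Hox genes mark position along the body axis. Genes of paralog groups 1 to 5 (14 measured) were found in 17 of the 28 WT cells with 2 or more T UMIs, at 431 CPM (270 to 653) against 475 CPM in cells without T. Groups 6 to 8 (7 measured) had 1 UMI in them, or 19.6 CPM (0.496 to 109) against 61.9 CPM in cells without T, and groups 9 to 13 (6 measured) had 0. At this depth neither differed from the cells without T beyond counting error.

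Other T-box genes and the partners of T did not share its ratio. Of the 15 T-box genes measured, 8 had at least 50 UMIs over both libraries, and T was the only gene among these 8 at least 2-fold lower in KO, beside 0.806% of all 12909 genes with that many UMIs. The others ranged from Tbx2, at 17.9 CPM in WT and 12.9 CPM in KO (log2 ratio −0.47), to the broadly expressed Mga, at 83.1 and 94.4 CPM (0.18). The list of genes that act with or downstream of T in axial and posterior mesoderm had 16 members with at least 50 UMIs, of which 0 were 2-fold lower and 0 were 2-fold higher. Their median log2 ratio was −0.21, beside −0.06 over all genes, and 13 of the 16 were below 0. Over all genes, 61.1% were below 0. The log2 ratio was −0.60 for Fgf8, −0.42 for Nog and −0.40 for Sp5.

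Lhx9 had 192 UMIs in WT, or 9.24 CPM (7.98 to 10.6), and 26 UMIs in KO, or 1.37 CPM (0.897 to 2.01). Its level in KO was 6.73-fold lower (log2 ratio −2.75). At least 1 UMI was present in 135 WT cells (1.13%, 0.947% to 1.33%) and 23 KO cells (0.236%, 0.149% to 0.353%), and after thinning in 0.736% and 0.124%. Lhx9 was thus found in more cells than T and at lower counts in each. In WT, 105 cells had 1 UMI and 30 had 2 to 6, which together held 87 UMIs (45.3%). In KO, 20 cells had 1 UMI and 3 had 2. The share with 1 UMI was 0.878% (0.719% to 1.06%) in WT and 0.205% (0.125% to 0.316%) in KO, and the share with 2 or more was 0.251% (0.169% to 0.358%) and 0.0307% (0.00634% to 0.0898%). Unlike for T, the intervals of the libraries were apart for both classes.

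Erythroid-gated cells gave a background for Lhx9 of 3 of 465 cells in WT (0.645%, 0.133% to 1.87%, all with 1 UMI; 0.436% after thinning) and 0 of 195 in KO, which allows up to 1.54%. The share over all WT cells lay within that interval, so cells with 1 UMI are not read by themselves as expressing the gene. No cell of either library had both T and Lhx9.

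Lhx9 was concentrated in cells with mesothelial markers. The epicardial and coelomic mesothelium gate, built on Wt1, Tbx18, Tcf21, Upk3b, Upk1b, Aldh1a2, Bnc1 and Sema3d, took 47 WT and 14 KO cells. Lhx9 was present in 19 of the 47 WT cells (40.4%, 26.4% to 55.7%) at 338 CPM (236 to 467), and in 2 of the 14 KO cells (14.3%, 1.78% to 42.8%) at 48.7 CPM (5.90 to 176). After thinning the shares were 23.4% and 7.14%. Over both libraries, and among genes with a minimum number of UMIs in the gate, Lhx9 ranked second by its ratio to other cells (18.4). It came after the gate marker Wt1 (20.5) and before the gate marker Upk3b (14.9). In the limb bud mesenchyme gate it was present in 7 of 33 WT cells (21.2%, 8.98% to 38.9%) at 135 CPM, and in 1 of 18 KO cells (5.56%, 0.141% to 27.3%) at 22.2 CPM. The limb name is not settled by the leading genes. Among genes with a minimum number of UMIs in the gate, only Prrx1 and Prrx2 of its markers were in the first 10, with Twist1 ranked next. Prrx2 and Twist1 are also arch mesenchyme markers. With 2 markers required, the gate held 175 cells and was led by Lhx2 (8.97), Fgf10 (6.69), Prrx1 (5.96), Prrx2 (5.56) and Tbx5 (4.79). All of these define the gate, which raises their ratios. The intervals of the shares overlapped between the libraries in both gates, and the CPM intervals of the mesothelium gate did not. The order of the 2 gates is not resolved either, since the intervals of their WT shares overlapped.

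Elsewhere Lhx9 was sparse. Cardiac muscle-gated cells had it in 10 of 1079 in WT (5.71 CPM) and 1 of 937 in KO (0.476 CPM), neural progenitor-gated cells in 4 of 534 and 2 of 481, and endothelial-gated cells in 4 of 425 and 0 of 343. The WT shares, at 0.749% to 0.941%, lay within the erythroid interval. The gate of dI1 interneurons, the dorsal neurons in which Lhx9 is known to act, held only 1 WT and 2 KO cells, none with Lhx9. The largest number of Lhx9-positive cells, 82 in WT and 16 in KO, was ungated, where the level was 9.66 CPM (7.98 to 11.6) and 1.71 CPM (1.03 to 2.66).

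The 20 genes most enriched in Lhx9-positive WT cells were led by Itga4, the α4 integrin, Lrrn4, a leucine-rich repeat protein of mesothelium, Tbx18, a T-box factor of the epicardium, and Nfia, a nuclear factor. Itga4 was present in 27 of the 135 cells against 1.52% of cells without Lhx9, Lrrn4 in 36 (26.7%) against 2.57%, and Tbx18 in 41 (30.4%) against 4.03%. Gata4, a zinc finger factor of heart and coelomic epithelium, was present in 49 (36.3%) against 8.69%. The list also held Hand2, Sox9, Myrf, Tgfb2, Podxl and Ezr. These shares were higher in the 30 WT cells with 2 or more Lhx9 UMIs, whose median depth was 2448 UMIs against 1934 in cells with 1 UMI, with Sox9 in 25, Gata4 in 23, Nfia and Myrf in 20 each, and Lrrn4 and Tbx18 in 19 each. In the 105 cells with 1 UMI, Lrrn4 was in 17, Tbx18 in 22 and Gata4 in 26, still above their shares in cells without Lhx9. For T, by contrast, Shh, Car3, Clu and Slit2 were in 0 of the 27 WT cells with 1 UMI.

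**Figure D4:**
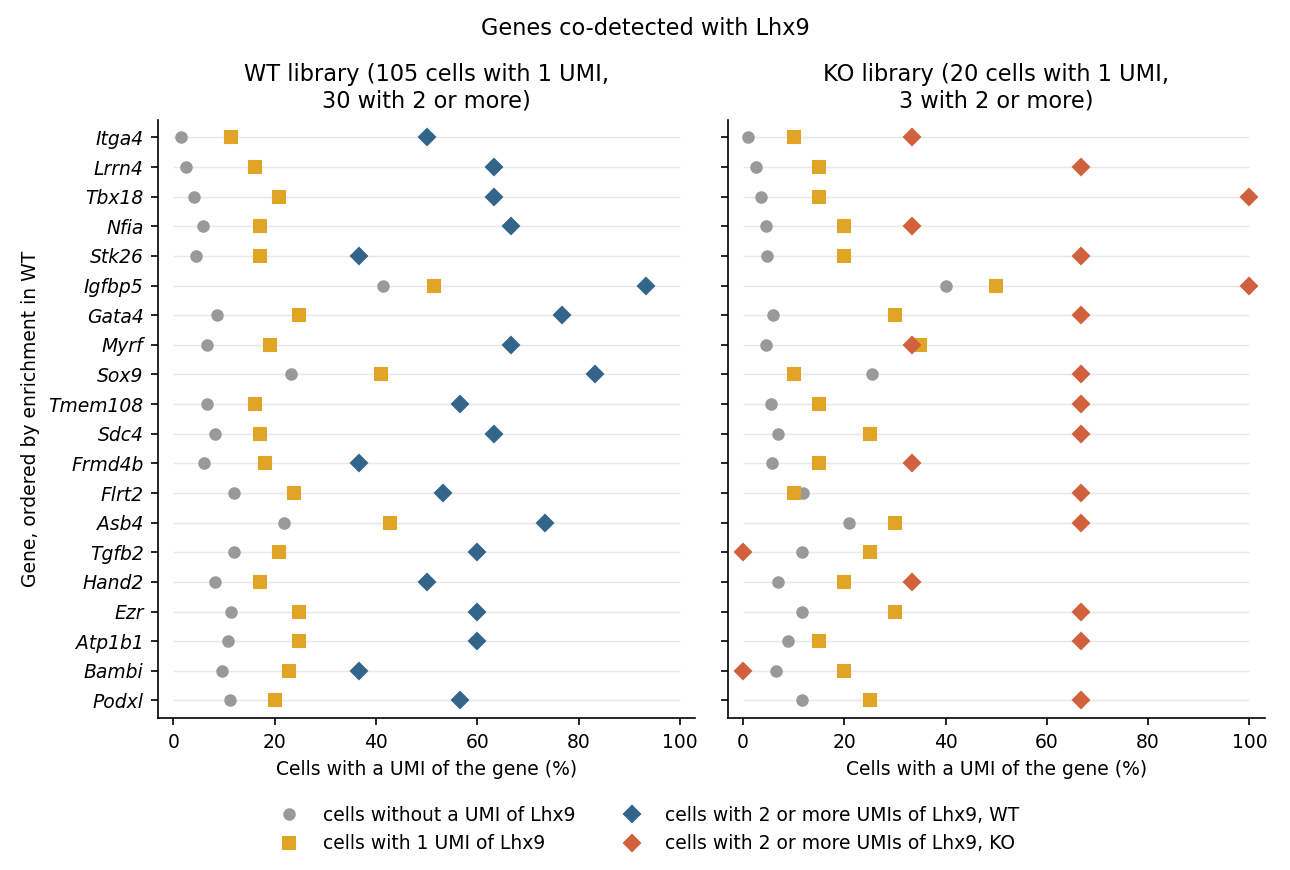
Percent of cells with a UMI of each gene (x axis) for the 20 genes most enriched in Lhx9-positive WT cells (y axis, most enriched at the top), in cells without Lhx9 (grey circles), with 1 Lhx9 UMI (yellow squares) and with 2 or more (diamonds, blue in WT and orange in KO). In WT the 3 classes are in the same order for each of the 20 genes. The KO class with 2 or more UMIs is 3 cells.

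Most of these genes were also more frequent in the few Lhx9-positive KO cells than in other KO cells. Tbx18 was present in 6 of the 23 KO cells (26.1%) against 3.59% of other KO cells, Lrrn4 in 5 (21.7%) against 2.59%, and Gata4 in 8 (34.8%) against 6.00%. Myrf was also in 8. Sox9 was in a smaller share, 4 of 23 (17.4%) against 25.5%, but at a higher level, 499 CPM against 226 CPM. The intervals of the WT and KO shares overlapped for Itga4, Lrrn4, Tbx18, Nfia, Gata4 and Myrf. For Sox9, at 50.4% (41.6% to 59.1%) in WT and 17.4% (4.95% to 38.8%) in KO, they did not. Sox9 was among the 20 genes chosen for their enrichment in Lhx9-positive WT cells, which favours a higher share in WT. The intervals cover counting error only, so no difference between the libraries is read from Sox9.

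Among the mesothelial markers themselves, Wt1, the Wilms tumour factor, was present in 26 of the 135 Lhx9-positive WT cells (19.3%) against 1.53% of other WT cells. Upk3b, a uroplakin of mesothelium, was present in 17 (12.6%) against 1.01%, and Bnc1, a zinc finger factor, in 16 (11.9%) against 1.78%. Tcf21 and Sema3d were in 16 and 17, against 2.06% and 1.94% of others, and Upk1b in 2. Aldh1a2, which encodes a retinoic acid synthesizing enzyme, went the other way, with 7 cells (5.19%) against 6.67%, none of them with 2 or more Lhx9 UMIs. At least 2 of the 8 mesothelial markers were found in 24 of the 30 WT cells with 2 or more Lhx9 UMIs, in 21 of the 105 with 1 UMI and in 2.22% of cells without Lhx9. At least 2 limb markers were found in 17 of the 135 positive cells (12.6%) against 4.49% of the others.

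The Lhx9-positive WT cells were sorted by mesothelial and limb markers, in a split chosen after the values were seen. Of the 135 cells, 41 had at least 2 mesothelial markers and fewer than 2 limb markers, 13 the reverse, 4 had at least 2 of each, and most, 77 (57.0%), had neither. Posterior Hox genes of groups 9 to 13 were present in 7 of the 13 limb-marked cells (53.8%), in 2 of the 41 mesothelium-marked cells (4.88%) and in 2 of the 77 others (2.60%). The limb list includes the posterior gene Hoxd9, which was in 7 of the 135 positive cells (5.19%) and in 0.0677% of other WT cells, so the limb count is not independent of these Hox genes. In KO, Hoxd9 had 0 UMIs over all cells, against 16 UMIs in WT, and groups 6 to 13 had 0 UMIs in the 23 Lhx9-positive cells. The upper exact Poisson bound of that zero is 61.4 CPM for either set of groups, above the 29.0 and 1.01 CPM of other KO cells, so no difference was detectable.

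The Lhx9 values of the libraries were set side by side within marker classes. These are the values that selected the gene, so they show in which cells it was scarce and are no further evidence of a difference. Cells with at least 2 mesothelial and fewer than 2 limb markers numbered 275 in WT (2.30%) and 144 in KO (1.47%). Lhx9 was present in 41 of the 275 (14.9%, 10.9% to 19.7%) at 136 CPM (109 to 169), and in 2 of the 144 (1.39%, 0.169% to 4.93%) at 8.51 CPM (1.75 to 24.9). Cells with both Lrrn4 and Tbx18 numbered 63 in WT (0.527%, 0.405% to 0.674%) and 16 in KO (0.164%, 0.0937% to 0.266%). Lhx9 was present in 25 of the 63 (39.7%, 27.6% to 52.8%) at 378 CPM (287 to 490), and in 3 of the 16 (18.8%, 4.05% to 45.6%) at 118 CPM (38.3 to 275). This pair was taken from the genes co-detected with Lhx9 in WT, which favours a higher Lhx9 level in the WT cells. Cells with at least 2 markers of both lists went the other way in share, with 4 of 33 in WT (12.1%) and 3 of 16 in KO (18.8%), with overlapping intervals. Lhx9 was also lower in KO in the other cells. With limb markers alone it was at 14.8 CPM (8.45 to 24.0) in 515 WT cells and 1.83 CPM (0.222 to 6.63) in 440 KO cells. Only WT cells could enter this class through the limb marker Hoxd9, which had 16 UMIs in WT and 0 in KO. This too favours a higher Lhx9 level in WT. With neither set of markers Lhx9 was at 4.42 CPM (3.53 to 5.47) in WT and 0.975 CPM (0.568 to 1.56) in KO.

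The relatives and cofactors of Lhx9 were examined next. All 12 LIM homeobox genes were measured, and 8 had at least 50 UMIs. Of these 8, Lhx9 was the only gene at least 2-fold lower in KO, beside 0.806% of all genes. Lhx2, its closest relative, fell short of that, at 7.41 CPM in WT and 4.22 CPM in KO (log2 ratio −0.81), and 6 of the 7 others were below 0, with a median of −0.48, beside 61.1% of all genes below 0 and a median of −0.06. Isl1, a factor of cardiac progenitors and motor neurons, was the exception at 0.14. The LIM cofactors Ldb1, Ldb2 and Lmo1 to Lmo4 had 0 of 6 genes past 2-fold and a median of −0.06. Lmo4, the most abundant of them, was in 24 of the 30 WT cells with 2 or more Lhx9 UMIs, against 29.4% of WT cells without Lhx9. Over all Lhx9-positive cells, whichever their number of UMIs, the level of Lmo4 was 546 CPM in WT and 249.7 CPM in KO. Over all cells it was 247 CPM in WT and 261 CPM in KO. The KO value rests on 23 cells, of which 20 had 1 UMI of Lhx9.

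The list of genes that act with Lhx9 in coelomic, limb and gonad mesoderm had 18 members with at least 50 UMIs. Of these, 16 were below 0, with a median log2 ratio of −0.35, beside the same 61.1% and −0.06 over all genes. At least 2-fold lower was 1 of the 18, beside 0.806% of all genes. It was Mab21l2, a developmental regulator of limb and body wall, at 11.4 CPM in WT and 5.49 CPM in KO (−1.05). Upk3b, at 7.27 and 3.64 CPM, fell just short, and Hand1 (−0.92), Wt1 (−0.91), Lhx2 (−0.81) and Gata4 (−0.71) followed. The 7 mesothelial gate markers with at least 50 UMIs were all below 0, with a median of −0.46, against that same background.

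Over all 12909 genes with at least 50 UMIs, 104 (0.806%) were at least 2-fold lower in KO and 21 (0.163%) at least 2-fold higher. This share is the background against which the T-box, LIM and network counts stand, and for T and Lhx9 themselves it was part of how they were selected. Lhx9 had the 5th lowest ratio, after Hoxb9 (−3.41), Hoxd8 (−3.27), Nepn (−3.10), an extracellular proteoglycan gene, and Rbp4 (−2.82), which encodes the retinol carrier made by visceral endoderm and liver. T was the 10th, between Aqp3, an aquaporin gene (−1.79), and Afp, the fetal liver protein (−1.73).

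**Figure D5:**
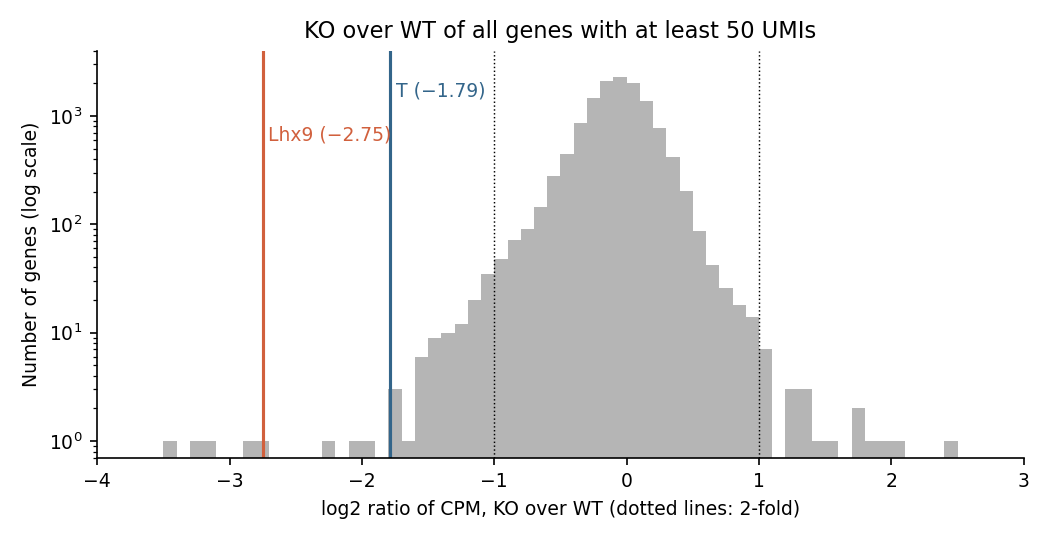
Number of genes (y axis, log scale) by the log2 ratio of KO over WT CPM (x axis) for the 12909 genes with at least 50 UMIs, with T (−1.79) and Lhx9 (−2.75) marked and dotted lines at 2-fold. Both genes lie in the sparse lower tail, with 9 genes below T and 4 below Lhx9.

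Some other cell type and position markers differed between the libraries, in both directions. Over all genes, 0.806% were at least 2-fold lower in KO and 0.163% at least 2-fold higher. Hepatic and visceral endoderm markers were at least 2-fold lower in KO in 3 of 5 genes, with a summed level of 98.9 CPM in WT and 31.4 CPM in KO, and 58 WT and 20 KO cells entered their gate, of which 0 had T or Lhx9. Erythroid markers were 2-fold lower in 5 of 8 genes (302 and 148 CPM summed). Hox genes of groups 6 to 8 were 2-fold lower in 3 of 4 genes (61.6 and 28.9 CPM summed), and Hoxb9, at 8.42 CPM in WT and 0.792 CPM in KO, was the only gene of groups 9 to 13 with at least 50 UMIs. Of the dermomyotome markers, 2 of 8 were 2-fold lower, Myf5 (−1.02) and Lbx1 (−1.14). The median of that list was −0.11 (234 and 198 CPM summed), and Pax7, Met and Meox1 were above 0. Arch mesenchymal neural crest markers had a median log2 ratio of 0.61, with 1 of 7 genes at least 2-fold higher in KO (Dlx1, 1.07). Their summed level was 331 CPM in WT and 352 CPM in KO, and Prrx2 (0.07) and Twist1 (−0.03) hardly differed. Their gate took 47 WT and 83 KO cells, of which 0 had T or Lhx9. The 3 megakaryocyte markers with at least 50 UMIs were above 0, with a median of 0.74, and 0 of the 3 were 2-fold higher. Hox groups 1 to 5 had 0 of 14 genes past 2-fold (474 and 396 CPM summed). Y-linked Ddx3y was at 53.2 and 26.4 CPM, and Xist, the RNA of the inactive X chromosome, at 159 and 334 CPM. The part of dissection level, cell composition and sex in the T and Lhx9 values was not tested, and with 1 library per genotype it cannot be told apart from that of the genotype.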

How the data were processed

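The deposited values are a signal per gene and cell: per the labels and the study's methods, the authors aligned 3′ droplet reads with Cell Ranger 1.3.1 and processed them in Scanpy, scaling each cell to a common UMI total before a square root. Processing notes name mm10, whereas the methods name a human reference joined to ZsGreen1; the symbols are those of mouse. The squared values summed to 1641 in every cell. UMIs were recovered by dividing each squared value by the cell's smallest nonzero one, and 100% of nonzero values were whole within 0.01. Because the values were not raw counts and each genotype had 1 library, no count model was run. The methods describe removal of doublets, mitochondrial and ribosomal counts; whether doublets were removed before deposit is not given, and no caller was run here.

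The members, gates, gene lists and comparisons were chosen with earlier results of these data known. Genes named as co-detected were the 20 with the largest CPM ratio of positive over other WT cells (10 CPM added to each side), among genes with at least 10 UMIs in the positive cells and present in at least 20% of them. Thinning to 1000 UMIs left out 1361 WT and 125 KO shallower cells. A count of 0 was taken to allow 3 cells. Gene ratios used at least 50 UMIs over both libraries. The other settings tried were 2 scalings, a mean over cells, thinning, marker and UMI minimums, the CPM added, gate-weighted comparison cells, and leaving out cells. Steps were tested on simulated data. Python 3.11.15, numpy 2.4.6, scipy 1.17.1, pandas 2.3.3 and matplotlib 3.10.9 were used.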

Additional observations from a re-analysis of the deposited data

How the results depend on the processing

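Of 43 values under other settings, 33 moved by less than counting error (or, for counts, by less than 1.5-fold), 10 moved by more and 0 reversed. The log2 ratio ranged from −2.23 to −1.72 for T and from −2.82 to −2.59 for Lhx9, and weighting KO gates as in WT, chosen after the data were seen, gave −1.83 and −2.59. Thinning to 1000 UMIs gave shares of 0.124% for T in KO and 0.736% and 0.124% for Lhx9 in WT and KO. Requiring 2 UMIs, also chosen afterwards, gave 0.234% and 0.0410% for T and 0.251% and 0.0307% for Lhx9. Requiring 4 markers left 4.44% of Lhx9-positive WT cells in the mesothelium gate, against 14.1% with 3. The notochord gate held 12.7% of T-positive WT cells with 2 markers and 3.64% with 4, against 7.27% with 3. Genes at least 2-fold lower numbered 243 of 14522 with at least 20 UMIs and 35 of 10513 with at least 200, since those minimums change which genes count; trimmed mean scaling gave 81. Lists of 20 co-detected genes kept 17 to 20. Comparison cells of the same gates were formed by weighting them to the gate make-up of the positive cells. No paired analysis was possible because the labels give no replicate numbers and each group has 1 library.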
